A study of Homo sapiens with 6 samples.

Results

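Making a ribosome takes a large set of nucleolar proteins, and 43 genes for such proteins were compared between FN3K KO and WT HepG2 cells. They were taken by gene symbol, from a list of symbols drawn up with earlier results of these data known. The symbols are the NOP, NOL, NOC, UTP, RRP and POLR1 series and a set of named factors such as FBL, NCL, NPM1, NPM3, DKC1, NOB1, PES1 and BOP1. The rule found 43 of 6357 assembled loci, 1 locus for each gene, and matches 68 protein-coding genes of GENCODE version 29. Genes it matches that have no such locus, among them POLR1A, POLR1D and WDR12, were not analysed here. FN3K encodes fructosamine-3-kinase, which phosphorylates sugars bound to the lysines of proteins. HepG2 is a cell line from a human liver cancer, and the study removed FN3K from it by CRISPR to ask which pathways depend on the enzyme. Each genotype gave 3 plates, and the RNA of all 6 was sequenced. The plates were grown in the same medium with serum and no other treatment. How many KO clones stand behind the plates is not given in the sources used here, so a difference due to FN3K and one due to the cloned line cannot be told apart. The p-values measure only the spread between these plates.

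Ribosome assembly begins in the nucleolus, where RNA polymerase I transcribes the ribosomal DNA repeats into a long precursor RNA. Small nucleolar ribonucleoproteins (snoRNPs) modify this precursor, those of the box C/D class by methylating riboses and those of the box H/ACA class by turning uridines into pseudouridines. Processing complexes then cut and fold it into the RNAs of the small and the large ribosomal subunit, and growing cells spend much of their energy on these steps. The libraries were made from RNA caught on oligo(dT) beads, so the values are levels of the mRNAs of these proteins. Ribosomal RNA itself, the proteins and the output of ribosomes were not measured in these libraries. Fewer cells with a transcript and less transcript in each cell cannot be told apart in bulk RNA.

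Levels are given as FPKM, as the authors deposited them, a unit that corrects the number of fragments for transcript length and sequencing depth. Coordinates are those of GENCODE version 29 on GRCh38. Read depth is unknown, since the values carry no counts. FN3K (chr17:82735575-82751197) had 27.7, 21.9 and 23.2 FPKM across WT and 0.782, 1.03 and 0.704 FPKM across FN3K KO, with the groups far apart in the direction of the labels. Of 10 liver cell markers 9 had a locus, with WT means from 17.0 to 1989.7 FPKM, and 5 of them were higher and 1 lower in FN3K KO. Of 12 markers of fibroblasts, immune cells and endothelium only CD14, which liver cells also express, had a locus. It had 0.446, 1.83 and 2.62 FPKM in WT and 14.3, 13.1 and 16.1 FPKM in FN3K KO. The part of these marker changes in the results was not tested.

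The E-box CACGTG, the letters that the transcription factor MYC and its partner MAX bind best, was common around the start of these genes. Promoter windows of 300 bases, from 250 before to 50 after the start, were matched in RefSeq (GRCh38.p14) for 37 of the 43 genes. The E-box stood in 18 of the 37 windows (48.6%), against 8.77% of windows over 27305 genes and 13.6% over the 3689 other genes with a locus. It reads the same on both strands, and in 17 genes it began between 20 bases before and 45 bases after the start. The windows below show it in 6 genes that fell in FN3K KO and in 2 that were not called, with 70 bases before and 30 after the start, 5′ to 3′ on the strand of the gene and the E-box in capitals.
FBL, chr19:39846350-39846449, minus strand: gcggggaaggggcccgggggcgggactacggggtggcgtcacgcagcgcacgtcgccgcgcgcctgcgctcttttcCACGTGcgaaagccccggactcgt
GNL3, chr3:52685962-52686061, plus strand: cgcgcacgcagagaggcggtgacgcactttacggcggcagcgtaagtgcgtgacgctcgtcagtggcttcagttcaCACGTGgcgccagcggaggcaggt
RRP9, chr3:51941875-51941974, minus strand: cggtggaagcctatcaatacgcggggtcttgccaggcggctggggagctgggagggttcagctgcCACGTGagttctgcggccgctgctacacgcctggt
UTP4, chr16:69132579-69132678, plus strand: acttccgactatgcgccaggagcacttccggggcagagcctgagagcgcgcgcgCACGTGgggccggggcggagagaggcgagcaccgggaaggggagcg
NAT10, chr11:34105559-34105658, plus strand: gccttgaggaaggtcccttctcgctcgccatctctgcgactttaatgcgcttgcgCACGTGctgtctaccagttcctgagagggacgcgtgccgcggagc
PES1, chr22:30591881-30591980, minus strand: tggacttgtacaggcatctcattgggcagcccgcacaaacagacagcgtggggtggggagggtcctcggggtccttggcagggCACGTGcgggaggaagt
NOP10, chr15:34343107-34343206, minus strand: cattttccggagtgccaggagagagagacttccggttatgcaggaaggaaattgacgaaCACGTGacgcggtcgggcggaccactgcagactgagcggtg
UTP18, chr17:51260476-51260575, plus strand: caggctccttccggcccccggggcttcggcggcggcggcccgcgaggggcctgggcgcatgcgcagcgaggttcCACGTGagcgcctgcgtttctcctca
In FBL and GNL3 the E-box began at base 7 after the start, and in RRP9 it lay across the start. NOP10 and UTP18 carried it just as close to the start as the genes that fell. The presence of the letters is a description and does not show that a factor bound there.

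In FN3K KO, most of the 43 mRNAs analysed here were lower by a modest amount in limma. Of the 43 genes, 34 (79.1%) were lower, 2 were higher and 7 were not called in limma. Calls were made at a Benjamini-Hochberg adjusted p under 0.05 over all 6357 loci. Every adjusted p given here comes from this fit unless another fit or adjustment is named. Over all loci 36.5% were called lower and 21.2% higher, so the share lower among these genes was above the background. This background was not matched for level, with a median WT mean of 13.4 FPKM against 25.8 FPKM for the 43 genes. The genes called lower were reduced between 1.15-fold for NCL, a major nucleolar protein, and 1.9-fold for NOB1, which cuts the small subunit RNA, both on the scale of FPKM + 1. On this scale none of the 43 genes passed a log2 fold change of 1 in size, a limit that 485 loci passed with an unadjusted p under 0.05. NOL3, at 0.99, passed it with a pseudocount of 0.1 (1.42), a common upper quartile (1.02) or equal library medians (1.06). The median log2 fold change was -0.42 for the 43 genes and -0.14 for all loci, and 36 of the 43 lay below the median of all loci. In 33 genes every FN3K KO library was below every WT library, against 39.8% of all loci. LTV1, an export adaptor of the small subunit, was the gene called lower whose groups overlapped. The call depended on the model. An ordinary linear model with the library term of Ballgown, without limma's pooling of variance over loci, called 3 of the 43 genes lower. That share did not exceed the 8.2% of all loci. The share of higher among called loci went from 36.7% to 53.8%. The median log2 fold change was then -0.27 for the 43 genes and -0.05 for all loci. The 3 genes still called lower were NOB1, NPM3 and DKC1, NOP9 alone stayed called higher, and the 34 genes all kept a log2 fold change below 0.

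**Figure D1:**
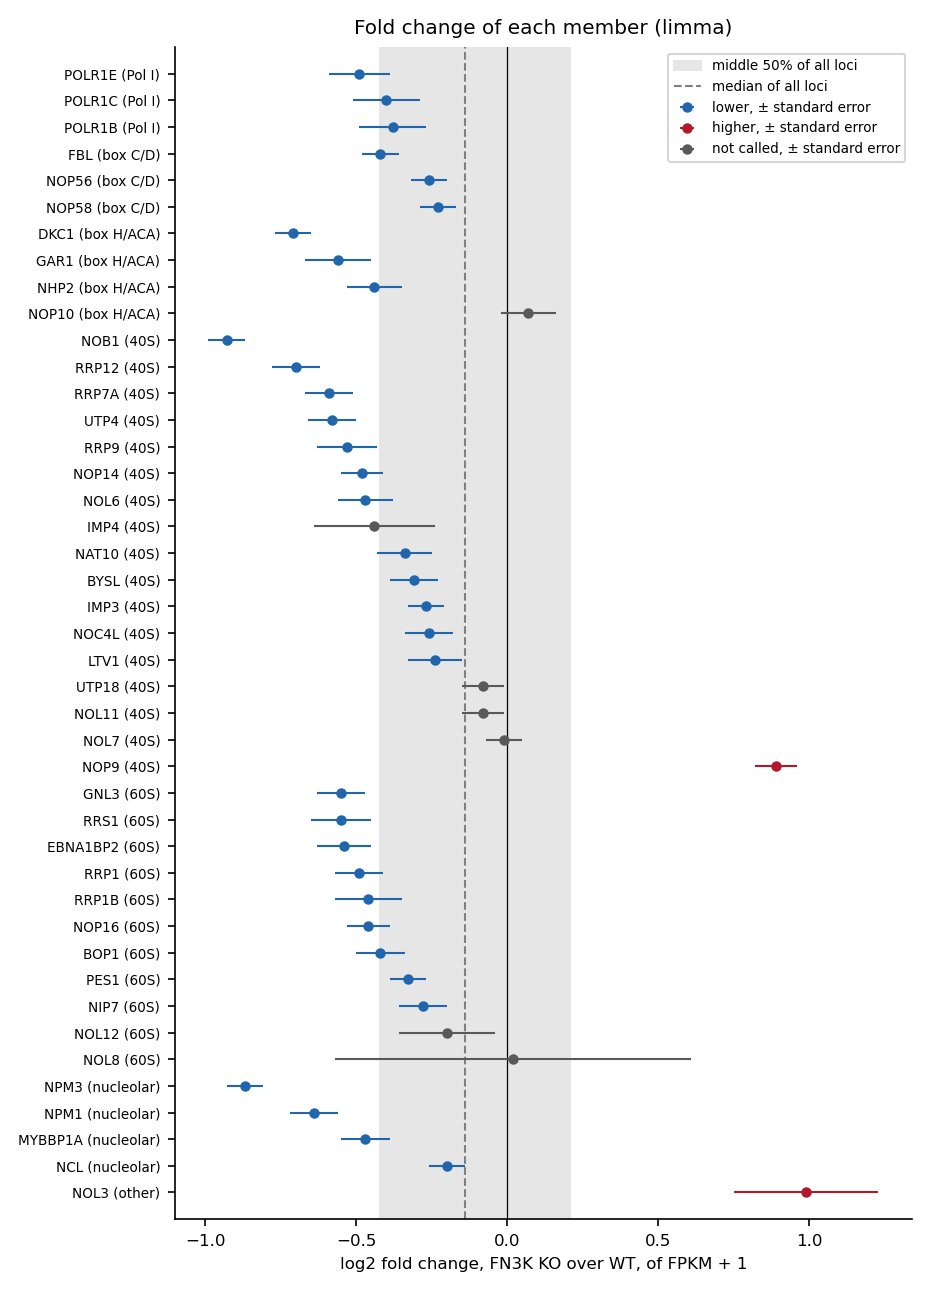
Log2 fold change, FN3K KO over WT, of FPKM + 1 for each of the 43 genes (points, with standard errors as lines), grouped by role, with the median of all loci (-0.14) as a dashed line and the middle 50% of all loci shaded. The 34 blue points were called lower, the 2 red points (NOP9 and NOL3) higher, and the 7 grey points were not called.

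Pooled over the 43 genes, the level in FPKM summed to 1643.2, 1715.1 and 1796.1 in the WT libraries and to 1281.2, 1249.8 and 1324.7 in the FN3K KO libraries. These sums do not overlap, and their means ± SD were 1718 ± 76.5 and 1285 ± 37.6 FPKM (n = 3 libraries each). NPM1 alone made up 19.3% of the WT sum, and 8 genes had a WT mean of at least 50 FPKM. The libraries within WT were not alike. WT replicate 1 was the lowest WT library for 32 of the 43 genes and WT replicate 3 the highest for 27, where over all loci these shares were 55.1% and 47.5%. Library medians over all loci were 12.862, 13.501 and 13.841 FPKM in WT and 12.521, 12.966 and 12.666 FPKM in FN3K KO.

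**Figure D2:**
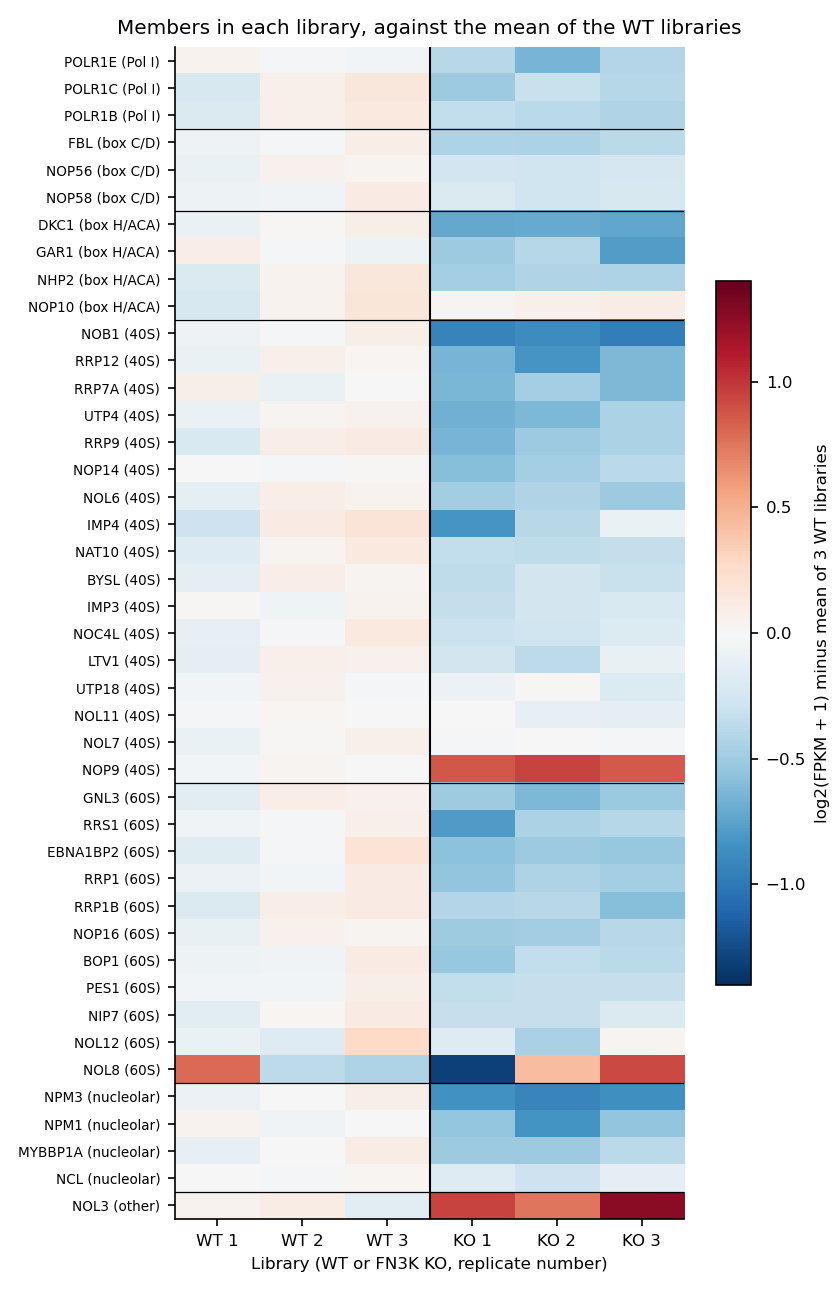
Colour shows log2(FPKM + 1) of each of the 43 genes (rows, grouped by role) minus the mean of the 3 WT libraries, in each of the 6 libraries (columns). Most rows are blue in the 3 FN3K KO columns, NOP9 and NOL3 are red there, and NOL8 changes sign between libraries of the same group.

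All 3 subunits of RNA polymerase I with a POLR1 symbol and a locus fell, where over all loci 36.5% were called lower. POLR1B, the second largest subunit and part of the catalytic core, lies at chr2:112541915-112577150. It had 8.05, 9.95 and 10.5 FPKM in WT and 7.23, 7.07 and 6.78 FPKM in FN3K KO, and the lowest WT library stood just above the KO libraries. Its log2 fold change was -0.38 (standard error 0.11, adjusted p = 0.015). POLR1C (chr6:43509702-43562419), which RNA polymerase III also uses, had 9.87, 12.4 and 13.2 FPKM in WT and 7.95, 9.28 and 8.66 FPKM in FN3K KO. Here too the groups were apart by a small gap, and the log2 fold change was -0.40 (standard error 0.11, adjusted p = 0.014). POLR1E (chr9:37485935-37503697), a subunit of the arm that helps initiation and elongation, had 9.46, 9.04 and 8.86 FPKM in WT and 6.71, 5.43 and 6.61 FPKM in FN3K KO. The gap was wider, and the log2 fold change was -0.49 (standard error 0.10, adjusted p = 0.0037). With the library term of Ballgown none of the 3 was called lower. The log2 fold changes were then -0.16 for POLR1B, -0.09 for POLR1C and -0.65 for POLR1E (adjusted p = 0.38, 0.29 and 0.053). The calls of POLR1B and POLR1C were lost without WT replicate 2 (adjusted p = 0.059 and 0.055) and without WT replicate 3 (0.065 and 0.063), and that of POLR1C also without FN3K KO replicate 1 (0.056).

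Of 12 listed factors of RNA polymerase I transcription outside the symbol rule, 5 had a locus and 3 of these fell. Over all loci 36.5% were called lower, and a list this small gives no more than a count. TAF1D, a subunit of the promoter selectivity factor, had 15.9, 16.1 and 16.1 FPKM in WT and 7.52, 7.18 and 8.37 FPKM in FN3K KO (log2 fold change -0.97, standard error 0.08, adjusted p = 1.6e-05). ZNRD1, an older symbol of a small subunit of the polymerase, moved by a log2 fold change of -0.63 (standard error 0.10, adjusted p = 0.0007). TBP, shared by all nuclear polymerases, had -0.35 (standard error 0.09, adjusted p = 0.01). UBTF, which coats the ribosomal DNA repeats, had 7.31, 8.37 and 7.45 FPKM in WT and 8.08, 8.88 and 7.48 FPKM in FN3K KO (log2 fold change 0.07, adjusted p = 0.57), with the groups overlapping. RRN3, which recruits the polymerase, varied too widely for a call, from 1.29 to 3.57 FPKM in WT and from 0.303 to 4.26 FPKM in FN3K KO (adjusted p = 0.43). With the library term of Ballgown 1 of these factors was called lower in place of 3. Among subunits of polymerase III 3 of 4 were lower, against the same 36.5% of all loci. The count fell to 1 without WT replicate 2, without WT replicate 3 or with the library term. Of 5 subunits that polymerase I shares with the other polymerases none was lower and POLR2L was higher (log2 fold change 0.46, standard error 0.11, adjusted p = 0.0064), a call lost with the library term. None of those 5 was lower at an unadjusted p under 0.05 in limma or called lower in any alternative.

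The mRNAs of 3 box C/D core proteins, FBL, NOP56 and NOP58, all fell, by unequal amounts, against 36.5% of all loci called lower. FBL, the methyltransferase fibrillarin (chr19:39834458-39846414), had 79.5, 82.3 and 88.6 FPKM in WT and 61.5, 61.0 and 63.9 FPKM in FN3K KO. No libraries overlapped, and the log2 fold change was -0.42 (standard error 0.06, adjusted p = 0.00033). NOP56 (chr20:2652145-2658393), one of the paired scaffold proteins, had 78.6, 87.3 and 86.2 FPKM in WT and 69.3, 69.1 and 71.2 FPKM in FN3K KO. Its partner NOP58 (chr2:202265716-202303666) had 40.9, 41.6 and 46.6 FPKM in WT and 37.1, 35.3 and 36.7 FPKM in FN3K KO. Both were lower in every FN3K KO library, with log2 fold changes of -0.26 (standard error 0.06, adjusted p = 0.0041) and -0.23 (standard error 0.06, adjusted p = 0.012). With the library term of Ballgown FBL, NOP56 and NOP58 all lost their calls (adjusted p = 0.073, 0.17 and 0.33). The log2 ratio of NOP58 to NOP56 differed by 0.02 between FN3K KO and WT (p = 0.90 in a two-sided exact permutation test, 1 of 4 ratios computed). The ratios of NOP56 and NOP58 to FBL were 0.16 and 0.18 higher in FN3K KO on the log2 scale, with no overlap of libraries and an exact permutation p of 0.10 each, the lowest that 3 libraries against 3 can reach (0.13 after Benjamini-Hochberg adjustment over the 4 ratios).

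In the box H/ACA core the mRNAs of 3 of 4 proteins fell, against the same 36.5% of all loci, and NOP10 was not called. DKC1, the pseudouridine synthase dyskerin (chrX:154762742-154777689), had 34.2, 37.0 and 38.7 FPKM in WT and 21.9, 22.1 and 21.7 FPKM in FN3K KO. The KO libraries lay close together and far below WT, and the log2 fold change was -0.71 (standard error 0.06, adjusted p = 2.4e-05). GAR1 (chr4:109815510-109824740), which helps release the substrate, had 14.6, 13.3 and 12.9 FPKM in WT and 9.28, 10.0 and 7.50 FPKM in FN3K KO (log2 fold change -0.56, standard error 0.11, adjusted p = 0.0022). NHP2 (chr5:178149460-178153967), which binds the guide RNA, had 44.2, 53.01 and 57.2 FPKM in WT and 36.6, 38.0 and 37.6 FPKM in FN3K KO (log2 fold change -0.44, standard error 0.09, adjusted p = 0.0027). Neither gene had overlapping groups. With the library term of Ballgown GAR1 and NHP2 lost their calls (adjusted p = 0.18 and 0.21) and DKC1 kept its call (0.018). NOP10 (chr15:34341713-34343177), a small protein that braces the catalytic domain of dyskerin, had 62.2, 75.1 and 81.9 FPKM in WT and 74.4, 76.4 and 78.0 FPKM in FN3K KO. The KO values lay inside the WT range, and the log2 fold change was 0.07 (95% interval -0.14 to 0.28, adjusted p = 0.53), turning to -0.04 without WT replicate 1. Set against the mean of DKC1, NHP2 and GAR1, NOP10 had log2 ratios of 1.15, 1.34 and 1.42 in WT and 1.93, 1.91 and 2.09 in FN3K KO. The ratio was higher in every FN3K KO library, by 0.67 in the mean (two-sided p = 0.10 by exact permutation, 0.13 after Benjamini-Hochberg adjustment over the 4 ratios). It is built from the levels given above and is no separate support for them.

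**Figure D3:**
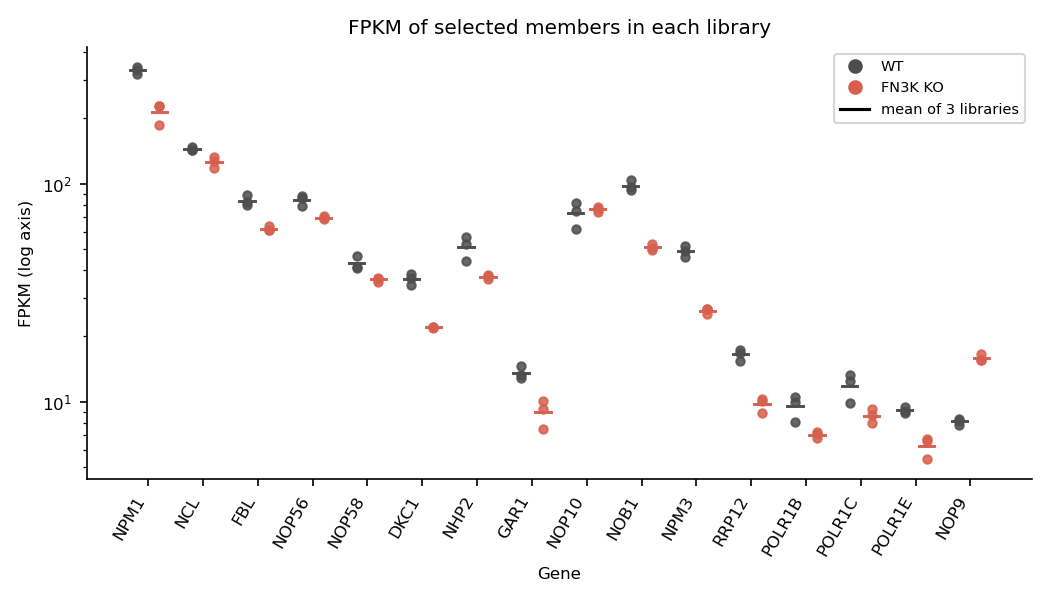
FPKM (log axis) of 16 genes in each library, with WT in grey, FN3K KO in red and the mean of the 3 libraries as a bar. NPM1 stands highest and the groups are apart for every gene shown except NOP10, with NOP9 the gene shown that is higher in FN3K KO.

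The small subunit processome binds the precursor as it is made, and later factors bring the small subunit to its final form in the cytoplasm. Of 17 genes for these steps 12 fell, 1 rose and 4 were not called, with a median log2 fold change of -0.34, against 36.5% lower and 21.2% higher over all loci. NOB1, the endonuclease that makes the last cut of the small subunit RNA (chr16:69741867-69754940), had the lowest log2 fold change of the 43 genes. It had 93.2, 96.8 and 104 FPKM in WT and 50.7, 52.6 and 49.7 FPKM in FN3K KO, so the KO libraries were all near 51.0 FPKM. The log2 fold change was -0.93 (standard error 0.06, adjusted p = 3.6e-06). RRP12, a factor in the export of both subunits (chr10:97356358-97426076), had 15.4, 17.3 and 16.8 FPKM in WT and 10.1, 8.88 and 10.3 FPKM in FN3K KO. Again no libraries overlapped, and the log2 fold change was -0.70 (standard error 0.08, adjusted p = 0.00015). Early processome proteins moved less. The log2 fold changes were -0.59 for RRP7A, -0.58 for UTP4, -0.53 for RRP9, a protein of the U3 snoRNP, -0.48 for NOP14 and -0.47 for NOL6. NAT10, the acetyltransferase of the small subunit RNA, had -0.34, and BYSL, IMP3, NOC4L and LTV1 had values from -0.31 to -0.24. With the library term of Ballgown NOB1 alone of the 12 genes that fell stayed called lower (adjusted p = 0.014). Calls for NOC4L and LTV1 were lost in more than one leave-one-out fit, without WT replicate 2 (adjusted p = 0.059 and 0.13), WT replicate 3 (0.087 and 0.13), FN3K KO replicate 1 (0.079 and 0.10) and FN3K KO replicate 2 (0.061 and 0.13).

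UTP18, NOL11 and NOL7, also of the processome, had nearly equal levels in the groups. UTP18 (chr17:51260528-51297936) had 22.6, 24.2 and 23.0 FPKM in WT and 22.0, 23.6 and 20.3 FPKM in FN3K KO, with a 95% interval of -0.24 to 0.08 for the log2 fold change (adjusted p = 0.34). NOL11 (chr17:67717833-67744531), which takes part in transcription of the precursor, had 17.7, 18.3 and 17.8 FPKM in WT and 18.0, 16.5 and 16.3 FPKM in FN3K KO, with an interval of -0.22 to 0.07 (adjusted p = 0.34). For NOL7 (chr6:13615327-13632739) the values were 67.3, 72.7 and 75.2 FPKM in WT and 70.7, 71.8 and 70.6 FPKM in FN3K KO, with an interval of -0.14 to 0.11 (adjusted p = 0.86). All 3 genes had overlapping groups, and the intervals leave room only for changes smaller than those of NOB1, RRP12 or UTP4. The sign of NOL7 turned with the scaling of the libraries, to 0.03 with a common upper quartile and 0.06 with equal medians. IMP4 (chr2:130342225-130347810), a protein of the U3 snoRNP, had 6.34, 8.71 and 9.16 FPKM in WT and 4.06, 5.84 and 7.44 FPKM in FN3K KO. Its groups overlapped through the lowest WT and the highest KO library, and the log2 fold change of -0.44 missed the threshold (95% interval -0.88 to 0.01, adjusted p = 0.086). It was called lower without WT replicate 1 (adjusted p = 0.044) and without FN3K KO replicate 3 (adjusted p = 0.033).

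NOP9, which binds the small subunit precursor, ran against the rest of its group. It had 7.85, 8.36 and 8.13 FPKM in WT and 15.6, 16.6 and 15.5 FPKM in FN3K KO, so every KO library was well above every WT library. The log2 fold change was 0.89 (standard error 0.07, adjusted p = 1.6e-05), a 1.86-fold rise on the scale of FPKM + 1. NOP9 lies at chr14:24299862-24309124, within a stretch from ABHD4 to FBXO33 (chr14:22598237-39432500) in which 48 of 49 other loci had a higher mean in FN3K KO. Of those 49 loci 41 were called higher and 1 lower, and their median log2 fold change was 0.59, while the 116 loci on the rest of the chromosome had a median of 0.02. The copy number of this stretch was not measured here. NOP9 also overlaps CIDEB on the opposite strand, a gene of lipid droplets and lipoproteins that had a mean of 10.3 FPKM in WT and 42.4 FPKM in FN3K KO (log2 fold change 1.94, adjusted p = 3.7e-07). The strand setting of the libraries is not given in the sources used here, so reads of the overlapping ends of NOP9 and CIDEB cannot be told apart.

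Large subunit assembly showed the same direction as the small subunit steps, with 9 of 11 genes lower, none higher and a median log2 fold change of -0.46, against the same 36.5% lower over all loci. PES1 and BOP1 form a complex with WDR12 that is needed to process the large subunit RNAs. PES1 (chr22:30576625-30607083) had 37.9, 37.7 and 41.1 FPKM in WT and 30.4, 30.8 and 30.9 FPKM in FN3K KO. BOP1 (chr8:144262102-144291370) had 32.6, 32.9 and 37.2 FPKM in WT and 23.3, 26.6 and 26.1 FPKM in FN3K KO. Both fell in every KO library, with log2 fold changes of -0.33 (standard error 0.06, adjusted p = 0.0011) and -0.42 (standard error 0.08, adjusted p = 0.0015). GNL3, the nucleolar GTPase nucleostemin, and RRS1, which helps load the 5S particle, each fell by 0.55 on the log2 scale. The values were -0.54 for EBNA1BP2, -0.49 for RRP1, -0.46 for both its relative RRP1B and NOP16, and -0.28 for NIP7. The call of NIP7 was lost without WT replicate 3 (adjusted p = 0.055). With the library term of Ballgown none of these 11 genes was called.

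NOL12 and NOL8 were the large subunit genes that were not called. NOL12 (chr22:37681673-37693478), a factor of precursor processing, had 7.27, 6.78 and 9.69 FPKM in WT and 6.77, 5.44 and 8.06 FPKM in FN3K KO. Its groups overlapped (log2 fold change -0.20, 95% interval -0.56 to 0.16, adjusted p = 0.31), and the transcript named at this locus is annotated as a target of nonsense-mediated decay. NOL8 (chr9:92297358-92325636) had 3.53, 1.03 and 0.932 FPKM in WT and 0.057, 2.52 and 3.94 FPKM in FN3K KO. The values scattered over both groups, and the 95% interval of its log2 fold change, -1.31 to 1.34, was too wide to read a direction (adjusted p = 0.98).

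The mRNAs of other nucleolar proteins, NPM1, NPM3, NCL and MYBBP1A, fell too. All 4 genes were called lower, against 36.5% of all loci, with a median log2 fold change of -0.55. NPM1, the histone chaperone nucleophosmin (chr5:171387116-171411137), was the most abundant of the 43 mRNAs per length, with 344, 319.8 and 333 FPKM in WT and 228, 186 and 226 FPKM in FN3K KO. The lowest WT library stood far above the highest KO library, and the log2 fold change was -0.64 (standard error 0.08, adjusted p = 0.00028). GENCODE holds 45 pseudogenes named after NPM1, with which its reads could be shared. NPM3, a shorter relative of NPM1 (chr10:101781325-101783413), had 46.1, 48.9 and 51.5 FPKM in WT and 26.7, 25.3 and 26.5 FPKM in FN3K KO. It showed the second lowest log2 fold change of the 43 genes, -0.87 (standard error 0.06, adjusted p = 6.4e-06), again with no overlap. NCL, nucleolin, which binds the precursor and the ribosomal DNA (chr2:231453531-231483641), had 143, 142 and 147 FPKM in WT and 127, 118 and 132 FPKM in FN3K KO. This was the smallest change among the genes called lower, -0.20 on the log2 scale (standard error 0.06, adjusted p = 0.017), and its call was lost without WT replicate 3 (adjusted p = 0.058). It was lost too with libraries scaled to a common upper quartile (adjusted p = 0.078) or to equal medians (adjusted p = 0.11). With the library term of Ballgown NPM3 alone of the 4 genes kept its call (adjusted p = 0.026). MYBBP1A, a repressor of transcription that resides in the nucleolus, fell by 0.47 on the log2 scale.

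NOL3 matches the rule by its symbol alone, since its best known product is ARC, an inhibitor of cell death. It lies at chr16:67170154-67175735 and had 1.25, 1.34 and 0.96 FPKM in WT and 3.21, 2.66 and 4.21 FPKM in FN3K KO. Every KO library was higher, and the log2 fold change was 0.99 (standard error 0.24, adjusted p = 0.0076). The call was lost with the library term of Ballgown (0.77, adjusted p = 0.15). At these low levels the added 1 FPKM understates the fold, and with a pseudocount of 0.1 the log2 fold change was 1.42 (adjusted p = 0.0053).

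The fall reached assembly factors that the symbol rule does not name, to a smaller degree. Of 89 such factors 46 had a locus, and 25 of these (54.3%) were called lower, 1 higher and 20 not called, with a median log2 fold change of -0.28. The background was again 36.5% lower. The 1 higher, MPHOSPH10, a processome protein, had 37.9, 30.3 and 34.0 FPKM in WT and 53.04, 45.5 and 57.1 FPKM in FN3K KO (log2 fold change 0.59, standard error 0.10, adjusted p = 0.0011). A locus named GLTSCR2 holds a transcript that GENCODE assigns to NOP53, a large subunit factor, and is no member by the rule because of its older name. It had 91.7, 84.3 and 90.7 FPKM in WT and 45.8, 50.7 and 49.5 FPKM in FN3K KO. Its log2 fold change of -0.86 (standard error 0.06, adjusted p = 7.1e-06) lay between those of NPM3 and DKC1.

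**Figure D4:**
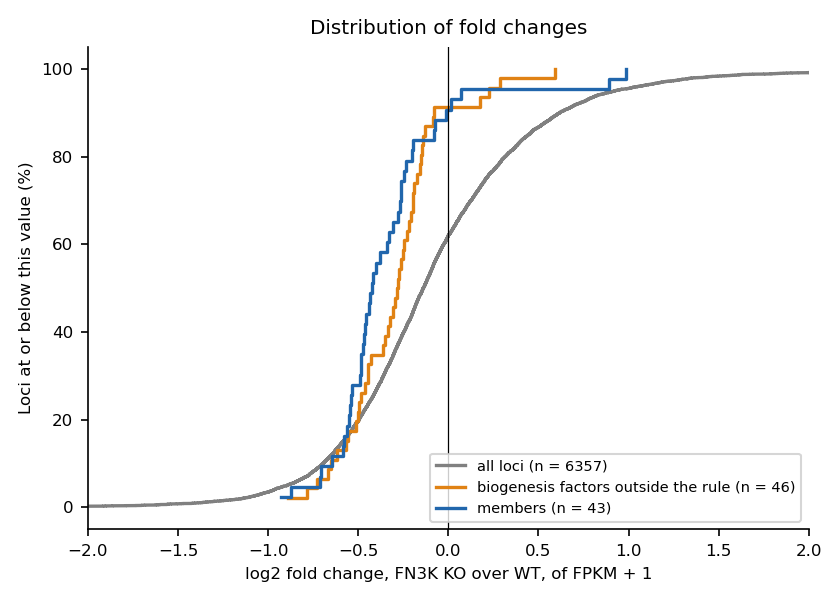
Cumulative share of loci (vertical axis, percent) at or below each log2 fold change, FN3K KO over WT, of FPKM + 1 (horizontal axis), for the 43 genes, 46 assembly factors outside the rule and all 6357 loci. The curves of the 43 genes and of the outside factors lie to the left of the curve of all loci over most of the range, with medians of -0.42, -0.28 and -0.14.

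Several features of the genes were compared with their direction. The 43 genes lie on 20 chromosomes. The bounds of 24 genes overlap those of another gene on either strand, small RNA genes not counted, and 9 have pseudogenes named after them. How many reads such overlaps share is not known. Among the 16 with neither, 13 were called lower, and their median log2 fold change was -0.40. Between their start and end, 6 genes (NOP56, NOP58, DKC1, GNL3, NCL and NOL11) hold 21 annotated snoRNA genes on the same strand, the guides of the modifying particles. Of these hosts 5 were called lower, with NOL11 the exception, where over all loci 36.5% were.

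Genes called lower were found both with and without the E-box. With it in the promoter window 13 of 18 genes were called lower, with a median change of -0.43 (log2), and without it 15 of 19, with a median of -0.38. The genes not called that held it were IMP4, NOL7, NOL8, NOP10 and UTP18. NOP9 and NOL3, called higher, held none in their windows. Over the 503 other listed genes with an E-box 41.0% were called lower, and over those without it 35.4%. Of 39 outside factors with a window 17 held an E-box. Other letters searched on both strands were CCGGAAG of the ETS family, found in 37.8% of the windows of these genes against 24.3% of other listed genes, and CCAAT, in 48.6% against 43.6%. The NRF1 motif was found in 13.5% of these windows, 2.95% of other listed genes and 1.52% of all genes. With the ETS letters 10 of 14 genes were called lower, and without them 18 of 23. For CCAAT the counts were 14 of 18 with it and 14 of 19 without it. For the NRF1 motif they were 3 of 5 and 25 of 32. Of other listed genes that held these letters, 38.2% (ETS), 34.9% (CCAAT) and 29.4% (NRF1) were called lower. MYC was not analysed here, and MAX, its partner, had 14.9, 18.5 and 15.8 FPKM in WT and 9.43, 10.3 and 11.1 FPKM in FN3K KO (log2 fold change -0.62, standard error 0.10, adjusted p = 0.00069), a call lost with the library term.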

How the data were processed

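RNA from 3 WT and 3 FN3K KO plates of HepG2 cells was sequenced after oligo(dT) capture. The submitters' processing notes name HISAT2, StringTie 2.0.6 and GRCh38.p5, and the methods name Ballgown for the test. The authors deposited FPKM values per assembled locus. The strand setting and the filter on loci are not given in the sources used here, and depth is unknown. FPKM are shares of a library, so a change in a few abundant transcripts shifts all others.

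From these values log2(FPKM + 1) was compared in R 4.3.3 with limma 3.58.1 (lmFit, eBayes with a variance trend) over all 6357 loci, FN3K KO minus WT, with Benjamini-Hochberg adjustment and calls at an adjusted p under 0.05. The script was tested on simulated data. Ratios within the box C/D and box H/ACA cores were compared by exact permutation over the 6 libraries. The fit was repeated after scaling to one 75th percentile or to equal medians, with 0.1 as pseudocount, on loci with a mean of 1 FPKM or more, with no variance trend, with the library term of Ballgown, with a replicate block, and without each library. Genes were named by rule: the 5 lowest and the 5 highest called log2 fold changes without overlap between groups and with a mean from 1 FPKM up (only 2 genes were called higher), the polymerase I subunits, the snoRNP cores, NCL, NPM1, PES1, BOP1, and those not called. GLTSCR2, MAX, CIDEB, CD14, MPHOSPH10 and the polymerase factors were named after their values were seen. The members, lists and promoter motifs were chosen with earlier results of these data known.

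Coordinates come from GENCODE version 29 (GRCh38), matched by transcript for 4892 loci, and promoters from RefSeq (GRCh38.p14). Tables and figures were made in Python 3.11.15 (numpy 2.4.6, pandas 2.3.3, matplotlib 3.10.9, scipy 1.17.1).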

Additional observations from a re-analysis of the deposited data

How the results depend on the processing

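Of the 34 genes called lower, 28 were called in every alternative but the library term of Ballgown, and all 34 stayed below 0 in every alternative. With the library term, an ordinary linear model called 606 of all loci higher and 521 lower, so the share higher among called loci was 53.8%, against 36.7% without it. It called 3 of the 43 genes lower and 1 higher, and 8 of the outside assembly factors lower, against 8.2% of all loci. The median log2 fold change was -0.27 for the 43 genes and -0.05 for all loci. At an unadjusted p under 0.05 this model had 16 of the 43 lower. The term ran from 15316 to 15764 in WT and from 15081 to 15342 in FN3K KO. This model also left out limma's pooling of variance over loci. Which of these changes took away the calls was not tested. With each library left out, 28 to 35 of the 43 genes were called lower, 2 higher, their median lay between -0.48 and -0.36, and 20 to 33 outside factors were lower. NOL7 turned to 0.03 with a common 75th percentile, 0.06 with equal library medians and 0.10 with the library term, and ranged from -0.06 to 0.02 with a library left out. NOL8 turned to -0.45 with a pseudocount of 0.1 and -0.38 with the library term, and ranged from -0.44 to 0.68 with a library left out. NOP10 ranged from -0.04 to 0.16. LTV1 lost its call with a common 75th percentile, with equal medians and with no variance trend, and NCL with the first pair of these.

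The replicate numbers did not pair the plates: deviations of same-numbered libraries correlated at 0.01, 0.006 and 0.046. With the number as a replicate block, 35 of the 43 genes were called lower, IMP4 joining at an adjusted p of 0.013, and 3707 of all loci were called in place of 3670.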

Other observations

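Lists next to ribosome assembly are small, and their counts stand beside 36.5% of all loci called lower and 21.2% higher. Of 14 proteins of the RNA exosome, which trims precursor RNA, 8 had a locus and 2 were called lower, EXOSC1 (log2 fold change -0.36, adjusted p = 0.00092 in limma) and C1D (-0.32, adjusted p = 0.021), with none higher and a list median of -0.23, a share lower below that of all loci. The number called lower ranged from 1 to 4 with a library left out. Impaired ribosome assembly is known to stabilise p53 in many cells. Of 25 target genes of p53, 8 had a locus. SESN2, TRIAP1, AEN and TNFRSF10B were called lower (log2 fold changes -0.61, -0.59, -0.52 and -0.45) and PLK3 and GADD45A higher (0.69 and 0.33), so the list had no single direction. The calls of PLK3 and GADD45A were both lost without WT replicate 1, without WT replicate 3 and without FN3K KO replicate 3. With the library term of Ballgown none of these 8 was called in either direction.

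Of 8 genes for MYC, its partners and its antagonists 4 had a locus. MAX and MXI1 were called lower (log2 fold changes -0.62 and -0.55, adjusted p = 0.00069 and 0.031 in limma). MXD4 rose from 20.9, 20.1 and 20.4 FPKM in WT to 27.5, 29.2 and 29.7 FPKM in FN3K KO (log2 fold change 0.47, standard error 0.06, adjusted p = 0.00019). MXI1 and MXD4 are both antagonists of MYC, so the antagonists had no single direction. Without WT replicate 1, WT replicate 2, FN3K KO replicate 2 or FN3K KO replicate 3, or with equal library medians, 1 of the 4 genes was called lower in place of 2. With the library term none was. Among the liver markers, AFP, a fetal liver protein, had 1554, 1527 and 1531 FPKM in WT and 6533, 5746 and 6337 FPKM in FN3K KO (log2 fold change 2.01, adjusted p = 1.7e-06). HNF4A, a liver transcription factor, fell by 0.35 on the log2 scale (adjusted p = 0.00066).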
